A study of Macaca mulatta with 2 samples.

Results

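Immediate early response genes are transcribed within minutes of a stimulus, from transcription factors that the cell already holds. Of 34 such genes chosen by name, 30 had a feature with that symbol among the 24037 features of both matrices, and JUN, EGR3, DUSP1 and DUSP2 were not analysed here. Single-cell RNA libraries were made from the trabecular meshwork of rhesus macaques, the porous drain of the eye for aqueous humour. There was 1 library from animals with glaucoma, described by the submitters as a spontaneous form of primary open-angle glaucoma, and 1 library from healthy controls, labelled normal. No treatment, transgene or time point is named for either library, and the labels do not give the number, age or sex of the animals. Both libraries shared a protocol of cold transport, warm collagenase digestion and droplet-based 3-prime counting of unique molecular identifiers (UMIs), each of which stands for 1 captured RNA molecule.

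In a resting cell most of these genes are silent or low, with serum response factor, its ternary complex partners and CREB waiting at their promoters. Growth factors, cytokines, calcium and mechanical strain reach those factors through MAP kinases and the actin cytoskeleton, and the first proteins made are themselves transcription factors (the FOS and JUN subunits of AP-1, EGR, KLF and NR4A proteins) or inhibitors that shut the response off. Meshwork cells are stretched by changes in eye pressure, and taking any tissue apart with enzymes is known to induce the same genes.

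The glaucoma library kept 8301 of 10624 barcodes (29774877 UMIs, median 2745 per cell) and the normal library 5364 of 7028 (21557258 UMIs, median 2699). Doublet calls took 3.85% and 1.22% of cells, below the 6.91% and 4.34% that loading predicts, so both libraries may still hold doublets. Among deposited barcodes 17 sequences occurred in both libraries. Cells were clustered without the genes described here and named from marker genes, and 9 classes had at least 50 cells in each library. The largest class was trabecular meshwork-like, with 2846 glaucoma and 1391 normal cells. MYOC, the myocilin gene of outflow cells, had a UMI in 96.4% and 99.1% of them, but also in 38.1% and 23.9% of T or NK cell-like cells, which should lack it, so a single UMI does not show that a cell expresses a gene. With 1 library per group there is no replicate and no test between the groups, and disease cannot be told apart from the animals used or the handling of each tissue. Intervals in brackets are 95% intervals that cover counting error only.

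The 30 genes together gave 1.08% of all UMIs of meshwork-like cells in glaucoma and 2.01% in normal tissue. That was the largest gap among the 9 classes. In the other classes their part of the UMIs ran from 0.480% in non-myelinating Schwann cell-like cells to 1.30% in macrophage-like cells of the glaucoma library, and from 0.640% to 1.58% in the same classes of the normal library. It was lower in the glaucoma library in each of the 9. FOS, GADD45B and ZFP36 made up 77.6% of the meshwork member UMIs in glaucoma and 66.8% in normal cells. The tenth of meshwork-like cells richest in these genes held 36.7% and 33.7% of the member UMIs, with 19.0% and 21.1% of all UMIs.

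Meshwork levels are given as UMIs per 1000000 UMIs of the class (CPM), and differences as the log2 ratio of the glaucoma over the normal library. A gene needed 100 UMIs over both libraries, which left out FOSL1 (10 and 20 UMIs), KLF2 (42 and 37) and IER5 (11 and 18). A ratio of 2-fold or more whose interval excluded no change was called lower or higher, and other ratios are described as between. Of the 27 genes measured, 15 were called lower in the glaucoma library, 11 were between and 1 was called higher. Over all 8977 genes measured in this class 5.74% were called lower and 5.36% higher. The median ratio of the 27 genes was -1.23 (median of their interval bounds -1.32 to -1.15), against -0.02 for all genes, and 26 of 27 ratios were below 0.

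**Figure D1:**
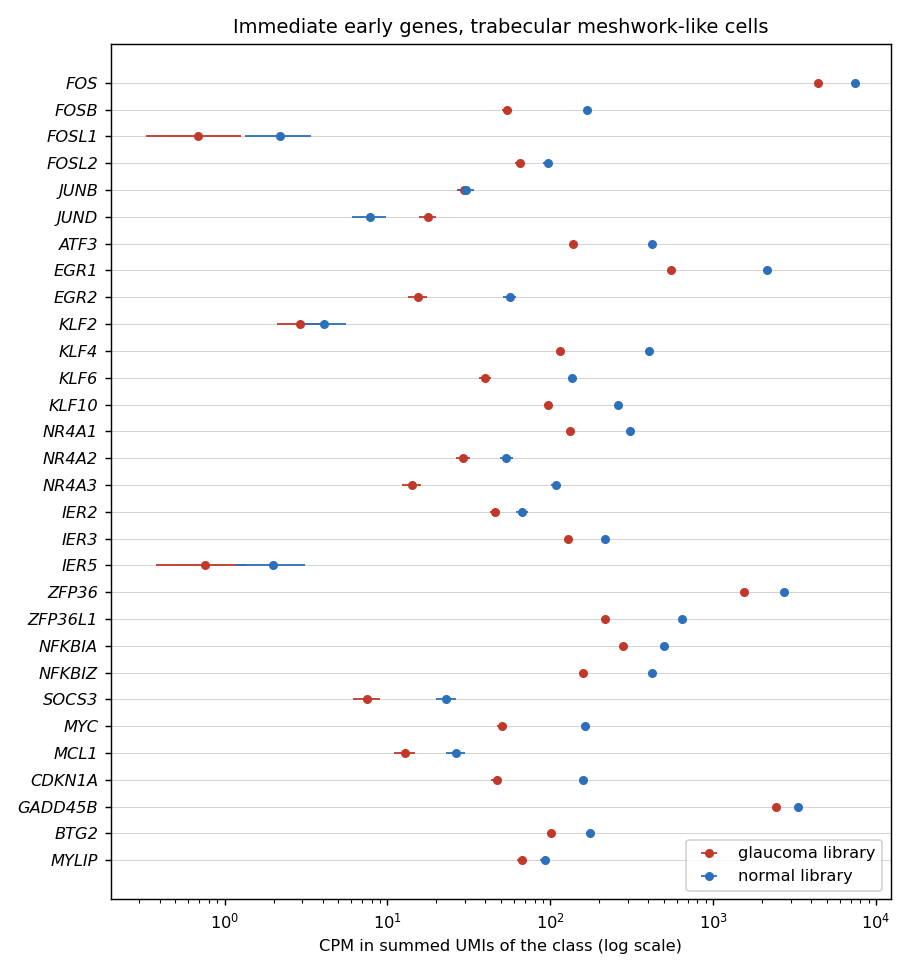
CPM of all 30 members (log axis) in trabecular meshwork-like cells, as 1 point per library with a bar for the 95% counting interval. Points of the glaucoma library lie left of those of the normal library for every member except JUND, and the 2 points of JUNB overlap.

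AP-1 is a dimer of FOS, JUN or ATF family proteins that binds TPA response elements. Its subunits were divided: of 6 measured, 2 were called lower, 1 higher and 3 between. FOS, the founding subunit, gave the most UMIs of any member, with 4422 CPM in the glaucoma and 7381 CPM in the normal library, a log2 ratio of -0.74 [-0.75, -0.72]. FOSB, a second FOS protein that lasts longer in stimulated cells, was at 54.3 and 169 CPM (-1.64 [-1.76, -1.51]). ATF3, a stress-induced partner of JUN proteins, was at 137 and 421 CPM (-1.62 [-1.70, -1.54]). Both were called lower, while FOSL2, which follows FOS more slowly, was at 64.8 and 96.3 CPM (-0.57). The JUN side did not share that direction. JUNB was at 29.4 and 30.4 CPM, a ratio of -0.04 [-0.27, 0.18] whose interval includes 0, and it was at 0.38 after thinning to 1000 UMIs per cell. JUND, which differs from the rest in being expressed constitutively in most cells, reached 17.7 CPM (256 UMIs) in glaucoma and 7.78 CPM (71 UMIs) in normal cells. Its ratio of 1.18 [0.80, 1.58] was the only one called higher. Levels are compared between libraries and classes, not between genes, since the values are not per length.

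The zinc finger factors were lower as a group, with 5 of 5 measured genes called lower and ratios from -1.94 to -1.42. EGR1 (ENSMMUG00000018025), which serum response factor and its ELK partners induce and which activates growth and matrix genes, was at 553 CPM (8020 UMIs) in the glaucoma and 2126 CPM (19393 UMIs) in the normal library. Its ratio was -1.94 [-1.98, -1.91]. EGR2, best known for switching on myelin genes in Schwann cells, was at 15.4 and 56.4 CPM (-1.87 [-2.11, -1.64]). KLF4, a regulator of quiescence and barrier genes, was at 115 and 402 CPM (-1.81 [-1.89, -1.72]). KLF6, a factor of wound and stress responses, was at 39.7 and 136 CPM (-1.78). KLF10, an early target of TGF-beta that limits inhibitory SMAD signalling, was at 96.8 and 259 CPM (-1.42). All 5 stayed called lower under every alternative tried in this class.

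The NR4A genes encode orphan nuclear receptors whose activity is set by how much protein is made. NR4A3 (ENSMMUG00000011410) had the lowest ratio of all members, with 14.1 CPM (204 UMIs) in glaucoma and 108 CPM (984 UMIs) in normal cells, -2.94 [-3.16, -2.72]. NR4A1 was at 132 and 310 CPM (-1.23 [-1.31, -1.15]) and was called lower, and NR4A2 at 29.0 and 53.8 CPM (-0.89 [-1.08, -0.70]) was between. Those calls change places when each cluster of the class has the same weight in both libraries: NR4A1 was then between (-0.69) and NR4A2 lower (-1.02). IER2 and IER3, small early response proteins, of which IER3 modulates survival signalling, were both between, at -0.55 [-0.71, -0.39] and -0.76 [-0.85, -0.67].

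Among 5 feedback inhibitors, 3 were called lower. ZFP36 and ZFP36L1 are RNA-binding proteins that speed the decay of AU-rich messages, early messages included. ZFP36L1 was at 217 and 646 CPM (-1.57 [-1.64, -1.51]), while ZFP36 was between at 1548 and 2720 CPM (-0.81 [-0.84, -0.79]). Both IkappaB genes were measured. NFKBIZ, a nuclear IkappaB protein that helps induce IL6, was called lower at 160 and 421 CPM (-1.40 [-1.47, -1.32]), and NFKBIA, which holds NF-kappaB in the cytoplasm, was between at 281 and 499 CPM (-0.83). SOCS3, which blocks signalling from gp130 cytokine receptors, was rare, with 109 and 209 UMIs (-1.61 [-1.96, -1.27]).

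Of 5 growth and survival genes 3 were called lower. MYC, which drives growth, was at 50.7 and 163 CPM (-1.68 [-1.81, -1.56]). CDKN1A, which encodes the cell cycle inhibitor p21, was lower to a like degree, at 47.0 and 158 CPM (-1.75 [-1.89, -1.62]). MCL1, a BCL2 family survival protein, was at 12.8 and 26.2 CPM (-1.04 [-1.32, -0.75]). Its call was lost under several alternatives, for example at -0.58 with equal cluster weights. GADD45B, a stress sensor upstream of p38 and JNK, gave the second most UMIs and was between, at 2415 and 3315 CPM (-0.46 [-0.48, -0.43]). BTG2, an antiproliferative gene, was between at -0.78, as was MYLIP, which encodes a ubiquitin ligase that degrades the LDL receptor, at -0.47.

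Mitochondrial content and the clusters behind the class differed between the libraries. Meshwork-like cells had a median of 3.52% mitochondrial UMIs (glaucoma) and 1.88% (normal), and median depths of 4595 and 5953 UMIs. Among cells under 5% mitochondrial UMIs the median ratio was -1.14, with 14 genes called lower. Of the class's 6 clusters, cluster 3 held 32.8% of its cells in the glaucoma and 9.42% in the normal library, and cluster 2 held 21.3% and 49.5%. Cluster 11 had the highest part of member UMIs (1.58% and 2.37%) and held 6.71% and 27.3% of the cells. Cluster 9 (0.734% and 1.30% member UMIs) held 20.7% and 4.96%, and cluster 12 (0.994% and 1.39%) held 18.2% and 2.44%. Cluster 2, led by GPHA2, HAPLN1, KRT19 and LUM, had markers of meshwork and of stromal fibroblasts, and its name is less certain. Without it the median was -1.34, with the other clusters still in unequal shares between the libraries.

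Within single clusters the direction was the same, though clusters 9 and 12 had only 69 and 34 normal cells, with 14 and 19 members measured. The median ratio was -1.11 in cluster 2, -1.23 in cluster 3, -0.91 in cluster 9, -0.72 in cluster 11 and -0.81 in cluster 12, while cluster 17 had no measured member. EGR1, ATF3, KLF4, KLF10, NFKBIZ, ZFP36, ZFP36L1 and FOS had intervals wholly below 0 in each of those 5 clusters. EGR1 spanned only -1.72 to -1.33 over them, whereas ATF3 spanned -2.82 to -1.13. NR4A1 ran from -0.83 to -0.41, closer to 0 than its class value. JUND was measured in 1 cluster, at 1.55. FOSL2, JUNB and IER2 each had at least 1 cluster above 0, and no interval of theirs was wholly above 0.

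Detection was compared after every cell was thinned to 1000 UMIs, which kept 2776 and 1340 meshwork-like cells and left out 70 and 51 shallower ones. EGR1 had a UMI in 32.0% [30.3, 33.8] of glaucoma and 62.0% [59.4, 64.6] of normal cells (63.8% and 78.2% without thinning). KLF4 was found in 7.64% and 24.6%, NFKBIZ in 12.4% and 28.6%, and ZFP36L1 in 17.6% and 38.6%. NR4A3 was seen in 0.937% [0.613, 1.37] and 6.72% [5.44, 8.19]. FOS was found in 74.2% and 81.8% of cells, and its gap lay more in the number of UMIs per positive cell, 5.49 against 7.68. EGR1 had both fewer positive cells and fewer UMIs in each, 1.55 against 3.02.

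Intervals of the thinned shares were apart for 20 of 23 members with enough cells, all 20 lower in the glaucoma library. Over all genes that could be compared in this class, 16.5% were lower by that rule and 18% higher. In all kept cells together 16 of 26 members had lower shares and 2, GADD45B and JUND, had higher shares, where 31.7% of all genes were lower and 19.5% higher. GADD45B was found in 47.2% of all glaucoma cells and 43.1% of normal cells, although within meshwork-like cells it was found in 56.5% and 63.0%. JUND was found in 1.98% and 0.622% of all kept cells. By the same interval rule, vascular endothelium-like cells had 1 of 10 members lower and 2, GADD45B and ZFP36, higher. Pericyte-like cells had 2 of 6 lower and GADD45B higher. The rest had none higher, with 8 of 14 lower in muscle-like, 6 of 12 in stromal fibroblast-like and 3 of 14 in macrophage-like cells. In non-myelinating and myelinating Schwann cell-like cells 2 and 1 of 7 were lower, and in T or NK cell-like cells 0 of 3. All genes were not counted by this rule there.

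**Figure D2:**
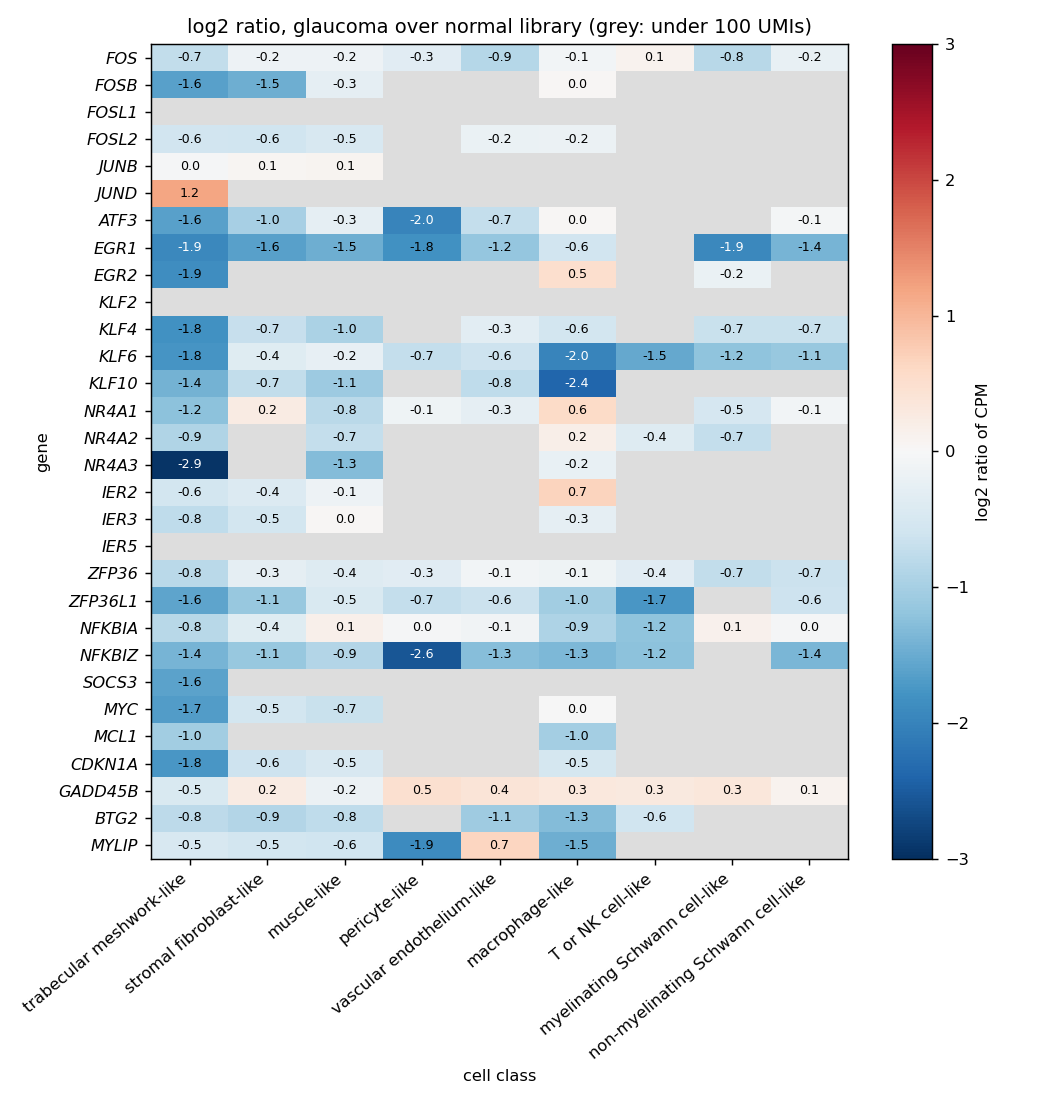
Log2 ratio of CPM, glaucoma over normal library, for each member (rows) in each of 9 cell classes (columns), coloured from blue (lower in glaucoma) to red (higher), with grey for genes under 100 UMIs. The EGR1 and NFKBIZ rows are blue in every class where they were measured, and the GADD45B row is red in 7 of 9 classes, of which stromal fibroblast-like cells turned to -0.63 with equal cluster weights.

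The remaining 8 classes had fewer measured members and medians nearer 0. In stromal fibroblast-like cells the median of 21 members was -0.55, with all genes at -0.20. Of these, 4 were called lower and 0 higher, where 8.76% of all genes were lower and 2.38% higher. The number called lower ran from 2 to 10 over the alternatives. EGR1 was the lowest at 367 and 1139 CPM (-1.63), followed by FOSB (-1.46), NFKBIZ (-1.14) and ZFP36L1 (-1.13). GADD45B was at 808 and 684 CPM (0.24 [0.15, 0.33]), but below 0 with equal cluster weights (-0.63) and with the members kept in clustering (-1.03). Free meshwork RNA touches this class most: if all its MYOC were free RNA of meshwork-like cells, that RNA would bring 50.2% of its member UMIs in glaucoma and 42.7% in normal tissue. The same reckoning gives 24.1% and 16.8% in muscle-like cells and at most 4.77% in any of the other 6 classes, and its part in the results was not tested.

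In muscle-like cells 3 of 23 members were called lower (3.53% of all genes) and 0 higher (3.01%), with a median of -0.48 against -0.12 for all genes. Among muscle-like cells under 5% mitochondrial UMIs 8 members were called lower, with a median of -1.14. EGR1 was at 373 and 1038 CPM (-1.48) and KLF10 at 69.1 and 148 CPM (-1.10). NR4A3 was at -1.30 [-1.67, -0.95], but 1 barcode held 39.8% of its glaucoma UMIs, and without the top barcode of each library it was at -1.86. NFKBIA was at 0.15 [0.01, 0.29], but at -0.02 with equal cluster weights and -0.06 under 5% mitochondrial UMIs. In pericyte-like cells 4 of 11 were called lower (4.73% of all genes) and 0 higher (2.28%), with a median of -0.70. NFKBIZ was the lowest there with 17 and 96 UMIs (-2.58 [-3.42, -1.82]), then ATF3 (-1.98), MYLIP (-1.88) and EGR1 (-1.81), and GADD45B was the highest at 0.49 [0.34, 0.64]. After thinning to 1000 UMIs the pericyte median was -0.11, with 1 called lower.

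Vascular endothelium-like cells had 3 of 15 members called lower (1.63% of all genes) and 0 higher (1.74%): NFKBIZ (-1.27), EGR1 (-1.17) and BTG2 (-1.06). The member median was -0.62, and MYLIP was the highest there at 218 and 139 CPM (0.65 [0.29, 1.02]). In macrophage-like cells 7 of 24 were called lower (5.26% of all genes) and 0 higher (3.39%), with a median of -0.24. After thinning 3 were called lower. KLF10 was lowest at 30.1 and 156 CPM (-2.37 [-2.81, -1.94]), followed by KLF6 at 215 and 847 CPM (-1.98), MYLIP (-1.46), NFKBIZ (-1.35), BTG2 (-1.30), ZFP36L1 (-1.05) and MCL1 (-1.03). IER2 was the highest with 160 and 27 UMIs (0.66 [0.07, 1.31]). In T or NK cell-like cells the member median was -0.61, against 0.14 for all genes. There 4 of 9 were called lower (2.57% of all genes) and 0 higher (3.79%). These were ZFP36L1 (-1.75), KLF6 (-1.53), NFKBIZ (-1.23) and NFKBIA (-1.20), with GADD45B the highest at 0.29. After thinning 2 members were called lower.

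Myelinating Schwann cell-like cells had 2 of 10 members called lower (3.64% of all genes) and 0 higher (1.85%), EGR1 at 156 and 599 CPM (-1.94 [-2.35, -1.54]) and KLF6 (-1.22). The member median was -0.69. Non-myelinating Schwann cell-like cells had 3 of 11 called lower (5.29% of all genes) and 0 higher (2.86%), EGR1 (-1.39), NFKBIZ (-1.38) and KLF6 (-1.13). Their member median was -0.61. Among cells under 5% mitochondrial UMIs the myelinating class had 0 called lower, and after thinning the non-myelinating class had 1. GADD45B was the highest member in both, at 0.33 and 0.10. EGR1 was thus called lower in 7 of the 8 classes in which it was measured, and it was between in macrophage-like cells (362 and 543 CPM, -0.59). JUND had under 100 UMIs in each class but the meshwork-like one. It was at 26.3 and 9.26 CPM in stromal fibroblast-like cells (63 and 29 UMIs). In muscle-like cells it was at 11.6 and 4.39 CPM (36 and 23 UMIs). Its ratio was also above 0 in pericyte-like (1.45), vascular endothelium-like (1.64), T or NK cell-like (2.02), myelinating (1.45) and non-myelinating Schwann cell-like cells (1.94). Macrophage-like cells were the exception, with JUND at 13.3 and 14.3 CPM (35 and 10 UMIs). FOS stood between in every class, from 0.11 in T or NK cell-like to -0.86 in vascular endothelium-like cells.

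Levels of the members also differed between the cell classes, with a leading class no more often shared or set apart than for all genes. Of 27 members with enough UMIs, 16 had the same highest class in both libraries (60.7% of all genes did), and 1 was at least 2-fold above the second class in both (12.2% of all genes). That gene was EGR2, at 459 and 525 CPM in myelinating Schwann cell-like cells against 187 and 131 CPM in macrophage-like cells. It had a UMI in 35.5% and 43.5% of thinned myelinating Schwann cell-like cells and in 0.357% and 0.930% of vascular endothelium-like cells. The remaining members named in the next sentences were chosen after their values were seen.

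**Figure D3:**
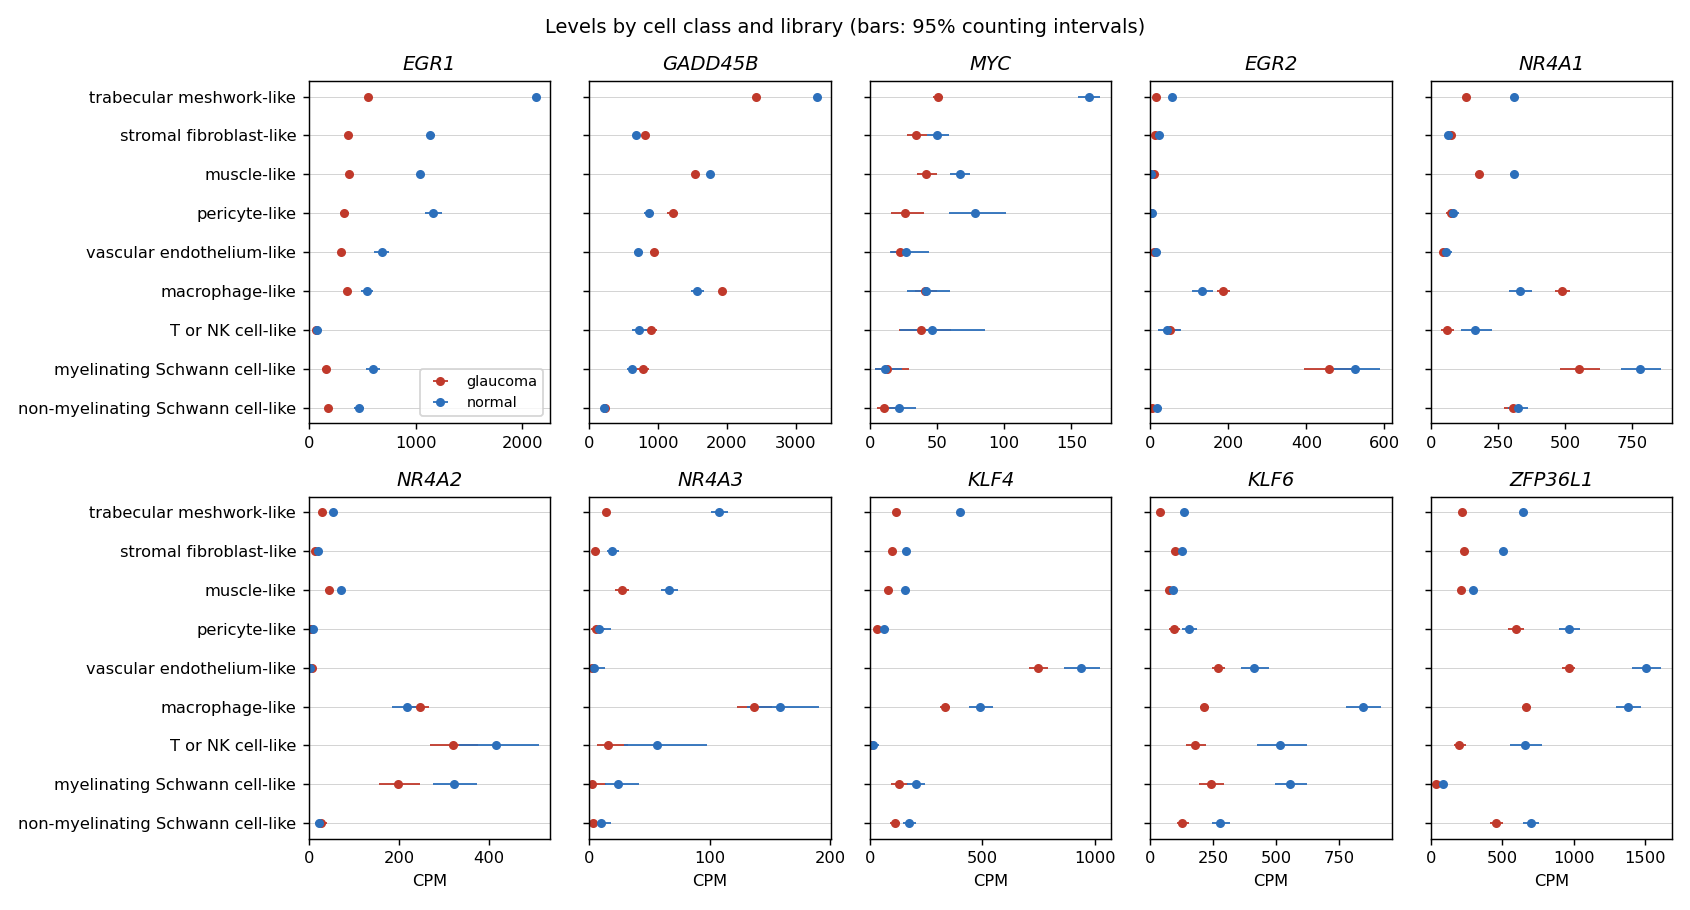
CPM of 10 members in the 9 cell classes, as 1 point per library with a bar for the 95% counting interval, each gene on its own axis from 0. EGR2 stands apart in myelinating Schwann cell-like cells, KLF4 in vascular endothelium-like cells and normal-library EGR1 in meshwork-like cells.

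KLF4 was highest in vascular endothelium-like cells at 749 and 940 CPM, followed by macrophage-like cells at 334 and 491 CPM, and it had a UMI in 44.3% and 45.6% of thinned endothelial cells. In T or NK cell-like cells it was found in 0.683% and 0.917%. KLF2, a gene that blood flow induces in endothelium, was at 35.3 and 30.2 CPM in the same class, from 59 and 17 UMIs, below the minimum for ranking the classes. The NR4A genes were spread over different classes. NR4A1 was highest in myelinating Schwann cell-like cells (552 and 780 CPM), NR4A2 in T or NK cell-like cells (319 and 415 CPM) and NR4A3 in macrophage-like cells (136 and 159 CPM). IER3, MCL1 and CDKN1A were also highest in macrophage-like cells in both libraries. ZFP36 and ZFP36L1 were highest in vascular endothelium-like cells.

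EGR1 was highest in meshwork-like cells in both libraries and lowest in T or NK cell-like cells, at 62.1 and 74.5 CPM. FOSL2, KLF10, NFKBIZ, MYC and GADD45B were also highest in meshwork-like cells in both libraries. FOS changed its order: it was highest in T or NK cell-like cells of the glaucoma library (4488 CPM), close to macrophage-like (4446 CPM) and meshwork-like cells (4422 CPM), and in meshwork-like cells of the normal library (7381 CPM), above myelinating Schwann cell-like cells (5927 CPM). Stromal fibroblast-like cells had the lowest FOS in both. Meshwork-like cells were the highest class for 6 members in the glaucoma library and for 11 in the normal library.

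The number of members found in a cell varied more than separate detection of each would give. At 1000 UMIs a meshwork-like cell had a UMI of 3.65 ± 2.31 members in glaucoma and 5.73 ± 3.24 in normal tissue (mean ± SD over cells, which are not replicates). At least 5 members were found in 35.1% and 64.9% of them. The variance of that number was 2.41 and 3.24 times the variance that the members' own shares would give if each were detected separately. Taken within clusters, it was 2.33 and 2.75 times. The class includes cluster 17 (11 glaucoma and 88 normal cells), where members were 0.0389% and 0.113% of UMIs. Over 9 classes and both libraries the variance ratio of whole classes ran from 1.61 to 3.24 with a median of 2.06. It was above 1 in every class and, at 1000 UMIs, lower in the glaucoma library in 9 of 9 classes, where cells also had fewer members in 9 of 9. At 2000 UMIs T or NK cell-like cells went the other way, at 2.31 (31 cells) in glaucoma and 1.74 (40 cells) in normal tissue. The ratio depends on how often members are detected, so its difference between libraries is not a measure of coordination.

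**Figure D4:**
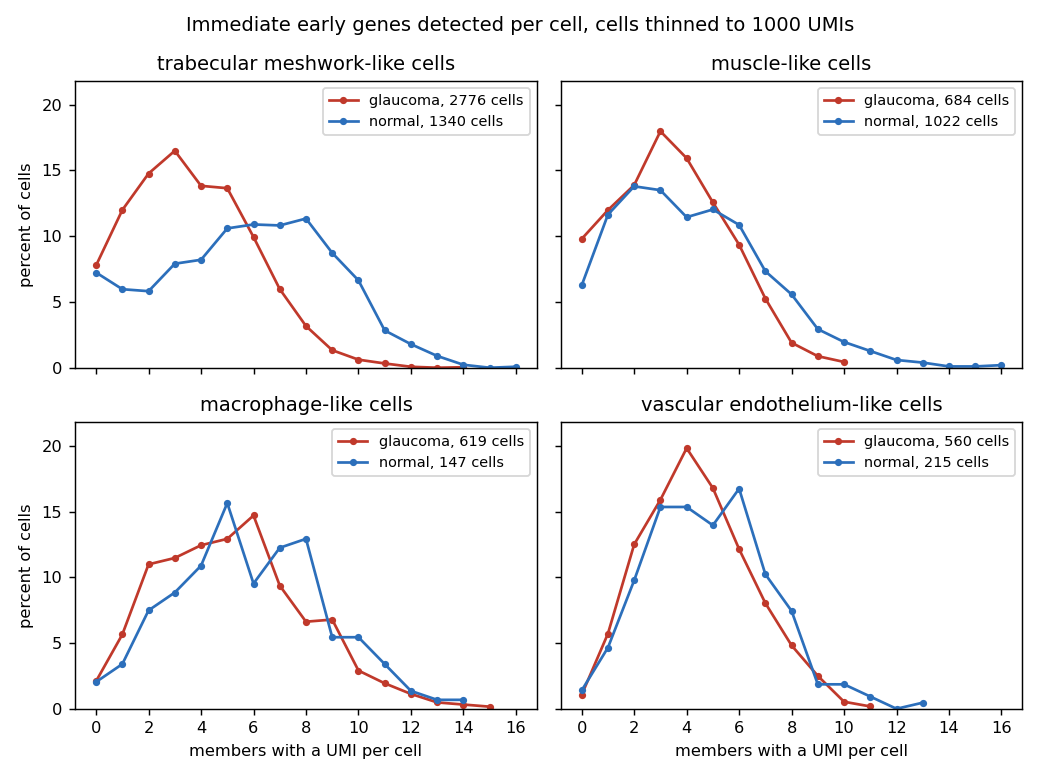
Percent of cells (vertical axis) by number of members with a UMI (horizontal axis) in 4 cell classes, at 1000 UMIs per cell, with 1 line per library. The meshwork-like lines are far apart, with medians of 3 in the glaucoma and 6 in the normal library, and the macrophage-like lines lie closer, with medians of 5 and 6.

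For comparison, the same ratio was computed for 4 further gene lists of the pathway. Its median was 1.25 for 46 other early response genes, 1.15 for heat shock genes, 1.11 for secreted and surface products of the response and 1.02 for upstream kinases and factors. The lowest ratio of the members, 1.61, lay above these 4 medians, and the highest value of 3 of the 4 lists lay above it.

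Pairs of members were described by Pearson's correlation of log counts over thinned cells of 1 class and library, taking genes detected in 10% or more of the cells of both libraries. The points share the library, the depth and the free RNA. Of 114 pairs, 51 had a median above 0.1 over the classes and libraries where both genes qualified and 13 had one below 0. Such medians were not computed for all gene pairs. Per class and library, all gene pairs above 0.1 ran from 0.955% (meshwork-like, glaucoma) to 15.8% (T or NK cell-like, normal). Member pairs above 0.1 ran from 28.6% (non-myelinating Schwann cell-like, glaucoma) to 90.5% (meshwork-like, normal). FOS with ZFP36 had the highest median, 0.50 (range 0.19 to 0.63), and was above 0.1 in 18 of 18. EGR1 with FOS followed at 0.44 and FOS with GADD45B at 0.36, each above 0.1 in 16 of 16. ATF3 with GADD45B (0.34, 4 of 4) and GADD45B with ZFP36 (0.34, 15 of 16) came next. BTG2 with MYLIP, EGR2 with NR4A2 and MYLIP with KLF4 were lowest, each at -0.05, and qualified in 2 to 4 of the 18.

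**Figure D5:**
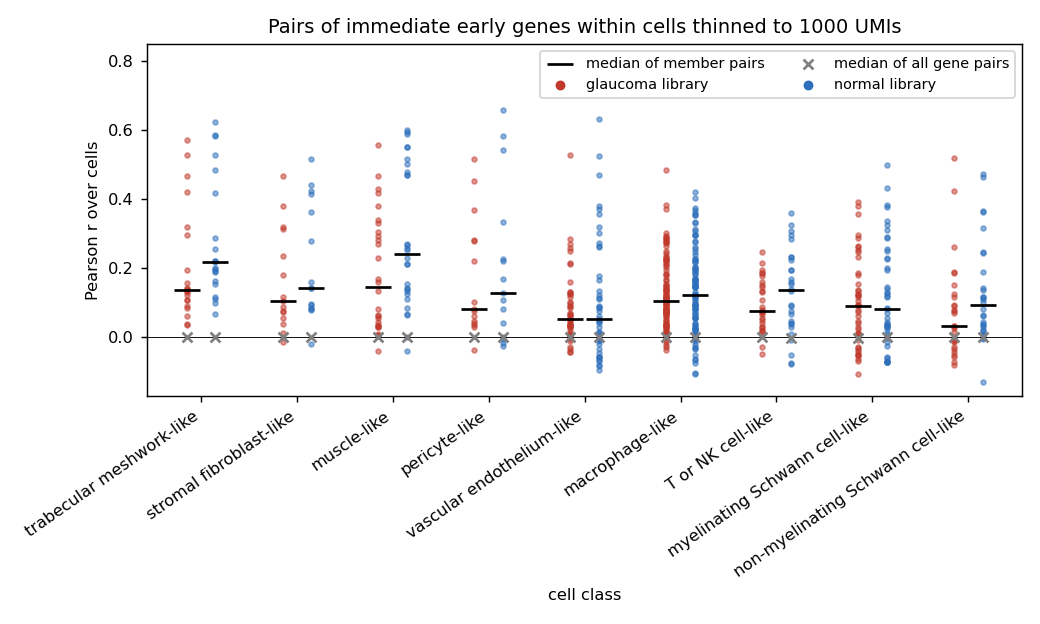
Pearson correlation over cells for each pair of members (points) in each cell class, with the glaucoma and normal libraries side by side, a black bar for the median of member pairs and a cross for the median of all gene pairs. Member medians lie above the crosses in all 9 classes of both libraries, from 0.03 to 0.24.

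In meshwork-like cells 7 members qualified. The median of their 21 pairs was 0.14 in the glaucoma and 0.22 in the normal library, and 76.2% and 90.5% of the pairs were above 0.1, against 0.955% and 1.41% of all gene pairs. FOS and ZFP36 had UMIs together in 49.6% of glaucoma cells, where their separate shares would give 41.1%, and in 60.3% of normal cells against 50.7%. NFKBIA and ZFP36L1 were nearly unrelated, with a correlation of 0.04 and 0.07. The highest correlations were among FOS, ZFP36, GADD45B and EGR1, and the lowest involved NFKBIA, NFKBIZ and ZFP36L1. The former were also the most abundant of the 7 in both libraries. How far the order follows abundance was not tested.

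Outside the members, 1349 genes could be ranked by their correlation with the number of members found per cell. The value ranked was the median over classes in the library where it was lower. RGS16, an inhibitor of G protein signalling, was first at 0.27 and 0.30. DNAJB1 (0.26 and 0.28), a chaperone, and PPP1R15A (0.20 and 0.28), which ends the stress block of translation, came next, followed by CCN1 (0.16 and 0.22), a matrix protein that YAP and serum response factor induce. HES1, TAGLN, ID1, ID2 and SERTAD1 were also among the 10 highest.

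The related genes did not all follow the members in meshwork-like cells, where 5.74% of all genes were called lower and 5.36% higher. Among 39 measured of the 46 other early response genes, 10 were called lower and none higher, with a median of -0.36. GADD45G (-2.38) and TRIB1 (-1.98) were among the lowest, and CEBPD (0.81), PLK3 (0.41) and MAFK (0.37) highest. With equal cluster weights GADD45G was at -1.32. Of 27 measured kinases and factors that act upstream, 2 were called lower, close to the share over all genes, and none higher. Their median was -0.25. MAP2K6, a kinase that activates p38, was at -1.18, BRAF was at 3.17 and 6.36 CPM, YAP1 was between at -0.98, and HRAS (0.83), MAP2K2 (0.44) and ELK1 (0.33) were highest. MAP2K6 was at -0.80 with equal cluster weights.

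Secreted and surface products of the response were nearest the members, with 7 of 13 called lower, 1 higher and a median of -1.12. The neutrophil chemokine CXCL2 was at 15.4 and 160 CPM (-3.38 [-3.59, -3.18]), and the cytokine IL6 at 20.2 and 130 CPM (-2.69). ADAMTS1, a protease of matrix proteoglycans, was at -1.79. THBS1, which encodes thrombospondin and releases TGF-beta from its latent form, went the other way at 166 and 67.0 CPM (1.31 [1.18, 1.44]), and at 0.71 with equal cluster weights. TIMP1 (0.24) and CCN2 (0.20) were between. Of 17 heat shock genes 4 were called lower and 1 higher, with a median of -0.44. BAG3 (-2.43), DNAJB1 (-2.19) and HSPH1 (-1.62), which heat shock factor induces, were lowest. CRYAB, a small heat shock protein abundant in eye tissue, was at 3569 and 1513 CPM (1.24), or 0.63 with equal cluster weights, and FKBP4 (0.53) and HSF1 (0.34) followed.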

How the data were processed

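The deposited values were counts, per the file headers and the labels: UMIs per gene and barcode as the authors made them, whole numbers without normalization. The submitters' processing notes name Cell Ranger 4.0 and Seurat 3.0, whereas the matrix headers name Cell Ranger 6.0.0, and the genome build was not given in the sources used here. The genes and the lists of related genes were chosen with earlier results of these data known.

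Cells with at least 500 genes and under 20% mitochondrial UMIs were kept after removal of doublets that Scrublet called (scanpy 1.11.5, Python 3.11.15). Of the 34 genes 30 were matched by symbol. The 2000 variable genes used for clustering left out the members and related lists (30 components, 15 neighbours, Leiden resolution 1, seed 1). Clusters took a class from at least 3 markers, and these rebuilt names may differ from those of the study. UMIs were summed per class and library. Lymphatic-type endothelium-like and melanocyte-like cells had under 50 cells in the normal library and were not compared. Intervals of CPM are exact Poisson, of shares exact binomial (Clopper-Pearson) and of ratios exact conditional binomial. Pairs used cells thinned to 1000 UMIs. The ratio intervals were tried on simulated Poisson counts, without spread between animals, and the variance ratio on simulated detections. In meshwork-like cells every measured gene is named, and in other classes the called, highest and lowest ones. Of pairs, the 5 highest and 3 lowest are named, and of each related list the 3 highest and 3 lowest. A few genes that these rules pick are not reported here. Alternatives were thinning, stricter cell filters, equal cluster weights, other clusterings, doublets kept, median scaling and no UMI minimum. Gene symbols absent from the matrices were also looked up in the reference table of gene names.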

Additional observations from a re-analysis of the deposited data

Results flagged for a closer look

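For 6 members the counting intervals lay wholly on opposite sides of no change in different cell classes, as log2 ratios of the glaucoma over the normal library. The difference between classes was not tested, and each class has 1 library per group. GADD45B was above 0 in 6 classes: pericyte-like (0.49), vascular endothelium-like (0.39), myelinating Schwann cell-like (0.33), macrophage-like (0.31), T or NK cell-like (0.29) and stromal fibroblast-like cells (0.24, but -0.63 with equal cluster weights and -1.03 with the members kept in clustering). It was below 0 in meshwork-like (-0.46) and muscle-like cells (-0.18). NR4A1 was above 0 in macrophage-like cells (0.56) and below 0 in meshwork-like (-1.23), muscle-like (-0.80) and myelinating Schwann cell-like cells (-0.50, but 0.08 in cells under 5% mitochondrial UMIs).

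EGR2 was at 0.51 in macrophage-like and -1.87 in meshwork-like cells, and IER2 was at 0.66 and -0.55 in the same classes. NFKBIA was above 0 in muscle-like cells (0.15, but -0.02 with equal cluster weights and -0.06 under 5% mitochondrial UMIs) and below 0 in meshwork-like (-0.83), stromal fibroblast-like (-0.37), macrophage-like (-0.92) and T or NK cell-like cells (-1.20). MYLIP was above 0 in vascular endothelium-like cells (0.65) and below 0 in meshwork-like (-0.47), stromal fibroblast-like (-0.55), muscle-like (-0.61), pericyte-like (-1.88) and macrophage-like cells (-1.46).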

How the results depend on the processing

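All 75 class medians of the members recomputed under alternatives were below 0, and no member called lower or higher changed sign. Some members that were between did. In stromal fibroblast-like cells GADD45B (0.24) was at -0.63 with equal cluster weights and -1.03 with the members kept in clustering. With separate clustering FOS was at 0.22, ATF3 at 0.23 and CDKN1A at 0.18 there, all below 0 as reported, and with the median of all genes set to 0 FOS was at 0.04 there and ZFP36 at 0.01 in vascular endothelium-like cells. NFKBIA in muscle-like cells (0.15) was at -0.02 with equal weights and -0.06 under 5% mitochondrial UMIs, which also put NR4A1 in myelinating Schwann cell-like cells at 0.08, ZFP36 in vascular endothelium-like cells at 0.02 and FOS in macrophage-like cells at 0.02. FOS was at 0.08 in muscle-like and 0.19 in non-myelinating Schwann cell-like cells under the stricter filter, and at 0.25 in the latter after thinning. CCN2 and ELK1 in meshwork-like cells were at -0.11 and -0.04 with equal weights. The cause of the changes that follow was not tested. In meshwork-like cells the median was -1.02 with equal cluster weights and -0.97 with the libraries clustered separately. It was -1.14 in cells under 5% mitochondrial UMIs and -1.34 without cluster 2, both chosen after seeing the data. Thinned to 1000 UMIs, JUND fell under the UMI minimum, which left 0 called higher. Thinning gave 5 called lower and a median of -0.80 in muscle-like cells, 1 and -0.11 in pericyte-like cells, 1 and -0.25 in non-myelinating Schwann cell-like cells, and 3 and 2 called lower in macrophage-like and T or NK cell-like cells. In stromal fibroblast-like cells 10 were called lower with equal weights, 10 with the members kept in clustering (median -0.98), 2 with separate clustering (1 higher) and 2 with the median of all genes set to 0. Under 5% mitochondrial UMIs 8 were called lower in muscle-like cells (median -1.14) and 0 in myelinating Schwann cell-like cells (median -0.27), and under the stricter filter 5 in muscle-like cells. With no UMI minimum 8 were called lower in pericyte-like, 5 in vascular endothelium-like, 9 in myelinating and 5 in non-myelinating Schwann cell-like cells. That setting also called 2 higher in stromal fibroblast-like and 2 in muscle-like cells, and 1 each in pericyte-like, vascular endothelium-like and non-myelinating Schwann cell-like cells. With doublets kept, non-myelinating Schwann cell-like cells had 1 called higher. Equal weights moved the medians of secreted products to -0.96 and of heat shock genes to -0.33. The variance ratio in meshwork-like cells was 2.75 at 2000 UMIs in the glaucoma library and 2.75 within clusters in the normal library. At 2000 UMIs that ratio was higher in the glaucoma library in T or NK cell-like cells (2.31 and 1.74). The other 199 counts, medians and ratios checked stayed within their limits. T or NK cell-like cells had no measured member under the stricter filter, and equal weights could not be given to classes of 1 cluster. No paired analysis was possible because there is 1 library per group.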
